A study of Homo sapiens with 15 samples.

Results

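The NF-kB pathway loci are the 10 genes NFKB1, NFKB2, RELA, RELB, REL, NFKBIA, NFKBIZ, TNFAIP3, BIRC3 and TRAF1, each taken as its gene body in GENCODE v44 plus 10 kb on each side, among 19982 protein-coding genes. They were chosen by name, and the choice was made on earlier results of these data: the NF-kB motif is enriched in regions that gained a peak in KO and lost it in rescue. KO against WT and rescue against KO are therefore described without a test, and only rescue against WT and the comparisons between clones of one genotype are tested. Chromatin accessibility was measured by ATAC-seq, in which a transposase cuts open DNA, in RPTEC, a renal proximal tubule epithelial cell line immortalized with hTERT and kept under G418.

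Each of 5 groups has 3 libraries. WT is the parental population with intact SETD2, the methyltransferase that places H3K36me3. KO1 and KO2 are each a single clone with CRISPR/Cas9 indels in exon 3 of SETD2. Rescue1 and Rescue2 are single colonies of knockout cells that carry a lentiviral full-length 3×FLAG SETD2 and were selected with blasticidin, and the clone names in the study's sequencing summary place both under KO2. KO denotes the 6 libraries of KO1 and KO2, and rescue the 6 libraries of Rescue1 and Rescue2. Nothing in the labels says that the 3 libraries of a group come from separate cultures, so the p-values measure only the spread between these libraries. The edit in SETD2 is a small indel and cannot be checked from peak positions.

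NF-kB transcription factors are dimers of 5 related subunits. NFKB1 and NFKB2 are made as precursors that are processed to p50 and p52, and RELA, RELB and REL carry transactivation domains. In resting cells the dimers are held by inhibitors such as NFKBIA (IκBα), and IKK kinases downstream of cytokine and Toll-like receptors release them. NFKBIA, NFKBIZ, TNFAIP3, BIRC3 and TRAF1 are textbook NF-kB target genes and most of them feed back on the pathway. In renal tubule epithelium the pathway is best known for its response to inflammatory cytokines and injury.

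Sequences that match the kB consensus, the 10-base site bound by these dimers, lie in the RefSeq promoter windows of 7 of the 9 genes that have such windows, and these are shown first because the loci were chosen around this motif. The consensus searched begins with GGG and ends with CC, with a purine at position 4, any base at 5, A or T at 6 and pyrimidines at 7 and 8, on both strands. Each line gives 30 bases of a RefSeq promoter window (hg38) on the strand of the gene, 5′ to 3′, with the match in capitals. A match written GGA...CCC reads as the consensus on the other strand. NFKB2 (chr10:102394461-102394490) and REL (chr2:60881517-60881546) each hold a second match 1 base downstream, on the other strand, that is not listed.
NFKB1 chr4:102501300-102501329: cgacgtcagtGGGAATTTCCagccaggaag
NFKB2 chr10:102394461-102394490: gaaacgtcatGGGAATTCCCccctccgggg
NFKB2 chr10:102394490-102394519: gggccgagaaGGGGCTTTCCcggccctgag
NFKB2 chr10:102395519-102395548: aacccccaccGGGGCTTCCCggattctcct
NFKB2 chr10:102395674-102395703: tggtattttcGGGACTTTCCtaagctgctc
REL chr2:60881517-60881546: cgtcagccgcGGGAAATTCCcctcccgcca
NFKBIA chr14:35404811-35404840: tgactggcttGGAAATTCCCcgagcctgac
NFKBIZ chr3:101827757-101827786: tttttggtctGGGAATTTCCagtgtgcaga
NFKBIZ chr3:101849265-101849294: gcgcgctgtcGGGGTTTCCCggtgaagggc
TNFAIP3 chr6:137867182-137867211: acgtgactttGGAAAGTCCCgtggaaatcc
TNFAIP3 chr6:137867194-137867223: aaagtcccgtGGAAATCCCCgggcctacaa
BIRC3 chr11:102317275-102317304: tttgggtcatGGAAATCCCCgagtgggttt
BIRC3 chr11:102317339-102317368: tattaccgctGGAGTTCCCCtaagtcctaa

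Every one of these matches lay under a peak in all 15 libraries, so none of the matches listed gained or lost its peak with SETD2 status. A RefSeq window holds 250 bases before and 50 after an annotated start site. Of the 16 windows of these genes, 9 (56.2%) held a match, against 2063 (5.90%) of all 34943 windows. Neither the 2 windows of RELA nor the 3 of TRAF1 held one, and RELB had no entry and was not searched this way. Over the full width of the accessible region at the start site, RELB held GGGGTTTTCC at chr19:45001333-45001342 and GGGGAATTCC at chr19:45001405-45001414 (+ strand), and TRAF1 held GGGGATTTCC at chr9:120926559-120926568 (− strand). These regions were also open in all 15 libraries. For BIRC3, a ubiquitin ligase of TNF receptor complexes that restrains the noncanonical pathway, the 250 bases upstream of the start site show the spacing of its pair of matches, 199 and 135 bases before the start site. For NFKBIA the single match lies 81 bases before the start site.
BIRC3 upstream chr11:102317234-102317483: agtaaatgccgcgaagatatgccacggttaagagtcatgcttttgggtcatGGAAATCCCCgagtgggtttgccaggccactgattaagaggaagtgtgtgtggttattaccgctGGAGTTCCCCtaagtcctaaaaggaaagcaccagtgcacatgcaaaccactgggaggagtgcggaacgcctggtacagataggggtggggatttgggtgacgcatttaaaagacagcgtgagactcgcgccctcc
NFKBIA upstream chr14:35404750-35404999: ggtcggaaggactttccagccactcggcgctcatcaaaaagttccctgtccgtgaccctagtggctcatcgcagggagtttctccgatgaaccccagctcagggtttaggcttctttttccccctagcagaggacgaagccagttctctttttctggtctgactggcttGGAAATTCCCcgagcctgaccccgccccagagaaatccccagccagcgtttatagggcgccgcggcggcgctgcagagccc

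The libraries held 197527 to 266011 peaks covering 49.4 to 65.2 Mb. The shortest coverage was in WT replicates 2 and 3 and the longest in Rescue2 replicates 1 and 2. The lists hold no read counts, so the depth behind a peak is unknown from these files, and a region without a peak is one below the calling threshold, not closed chromatin. Promoters of PAX8, KRT8, KRT18 and EPCAM, kidney epithelial markers, had a peak in all 15 libraries, whereas CDH1 had one in the 3 WT libraries and 1 KO2 library. Among markers of the differentiated proximal tubule, SLC34A1 and AQP1 had a promoter peak in all libraries, LRP2 and SLC5A2 in 1 each and CUBN in none. None of 4 leukocyte markers (PTPRC, CD3E, CD79A, SPI1) had a promoter peak, and of 3 endothelial markers CDH5 had one in every library and PECAM1 and VWF had none.

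Peaks that shared at least 1 bp were merged across libraries, and merged regions with a peak in at least 2 libraries were kept. The 10 loci held 129 of the 295008 regions kept. Of these 129, 57 (44.2%) had a peak in all 15 libraries, against 35.6% of all regions. These 57 had a median width of 513 bp, and the others 195.5 bp. Start sites were the most uniformly open positions: 14 of 17 regions within 1000 bp upstream to 100 bp downstream of a start site of the member had a peak in every library, compared with 5 of 16 exonic, 17 of 47 intronic, 6 of 12 upstream and 15 of 37 downstream regions. NFKB1, with the longest gene body (116.0 kb), held 35 regions, and RELA held 6. Per kb of locus, the mean length under peaks was greatest at NFKBIA (124.0 bases) and smallest at REL (20.8 bases).

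All 10 canonical start sites lay in a region with a peak in every library. Peak strength is given as the percentile of the strongest promoter peak among all peaks of the same library, ranked by fold enrichment over local background. RELB, BIRC3, RELA, REL and TRAF1 ranked in the upper part of every list, between percentiles 58.6 and 84.1. NFKB1 lay between 38.7 and 59.3, NFKBIZ between 31.4 and 54.3 and TNFAIP3 between 20.8 and 60.4. NFKBIA, between 9.86 and 44.9, and NFKB2, between 8.36 and 33.7, ranked lowest although their start sites were open in all libraries. Fold enrichment compares a summit with its own surroundings, so a low rank does not mean a narrow region: the NFKBIA promoter region spans 1423 bp.

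Promoter ranks of NFKBIA, TNFAIP3 and NFKBIZ were higher in every rescue library than in every KO library. A percentile depends on how many weak peaks a list holds, and list lengths differed between libraries, so ranks within the 150000 most significant peaks of each library are given below. NFKBIA, which retains NF-kB in the cytoplasm, ranked at percentiles 12.5, 12.0 and 18.8 in WT, 16.0, 17.8 and 10.998 in KO1, 12.0, 10.96 and 9.86 in KO2, 28.2, 22.4 and 31.1 in Rescue1, and 31.9, 25.6 and 44.9 in Rescue2. WT and KO libraries were intermixed, and the lowest rescue library was above the highest of both. TNFAIP3 (A20), a ubiquitin-editing enzyme that terminates signalling, ranked at 43.5, 39.6 and 53.5 in WT, at 20.8, 39.9 and 38.7 in KO1, at 28.0, 39.6 and 35.7 in KO2, at 54.5, 53.2 and 46.1 in Rescue1 and at 54.9, 60.4 and 46.5 in Rescue2. NFKBIZ (IκBζ), a nuclear member of the inhibitor family that also co-activates secondary response genes, ranked at 32.8 to 40.4 in KO, with a median of 36.9, at 43.9 to 54.3 in rescue, with a median of 51.7, and at 31.4, 43.0 and 48.3 in WT.

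No rank was lower in all rescue than in all KO libraries, and none of the 10 separated KO from WT. Among 12773 promoter regions open in all libraries, rescue ranks were above all KO ranks at 1.42% and below at 5.3%, and KO ranks were above all WT ranks at 6.99% and below at 4.89%. Rescue ranks were above all WT ranks at NFKB1, REL and NFKBIA and below at none, against 4.5% above and 11.2% below among all promoters. When peaks were ranked by −log10 q instead, an ordering chosen after seeing the data, none of the 10 promoters separated rescue from KO, and NFKBIA ranked at 61.5 to 77.6 in rescue and 61.7 to 69.9 in KO. Within lists of equal length, also chosen after seeing the data, rescue stayed above KO at NFKBIA (3.74 to 23.4 against 0.423 to 3.22) and TNFAIP3 (20.3 to 38.0 against 3.86 to 14.01), and 0.908% of all promoters were above. NFKBIZ then overlapped (14.4 to 36.7 against 6.84 to 17.8). TNFAIP3 in KO was below WT (20.01 to 38.4) in these lists, as were 7.23% of all promoters, and none of the 10 separated rescue from WT.

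**Figure D1:**
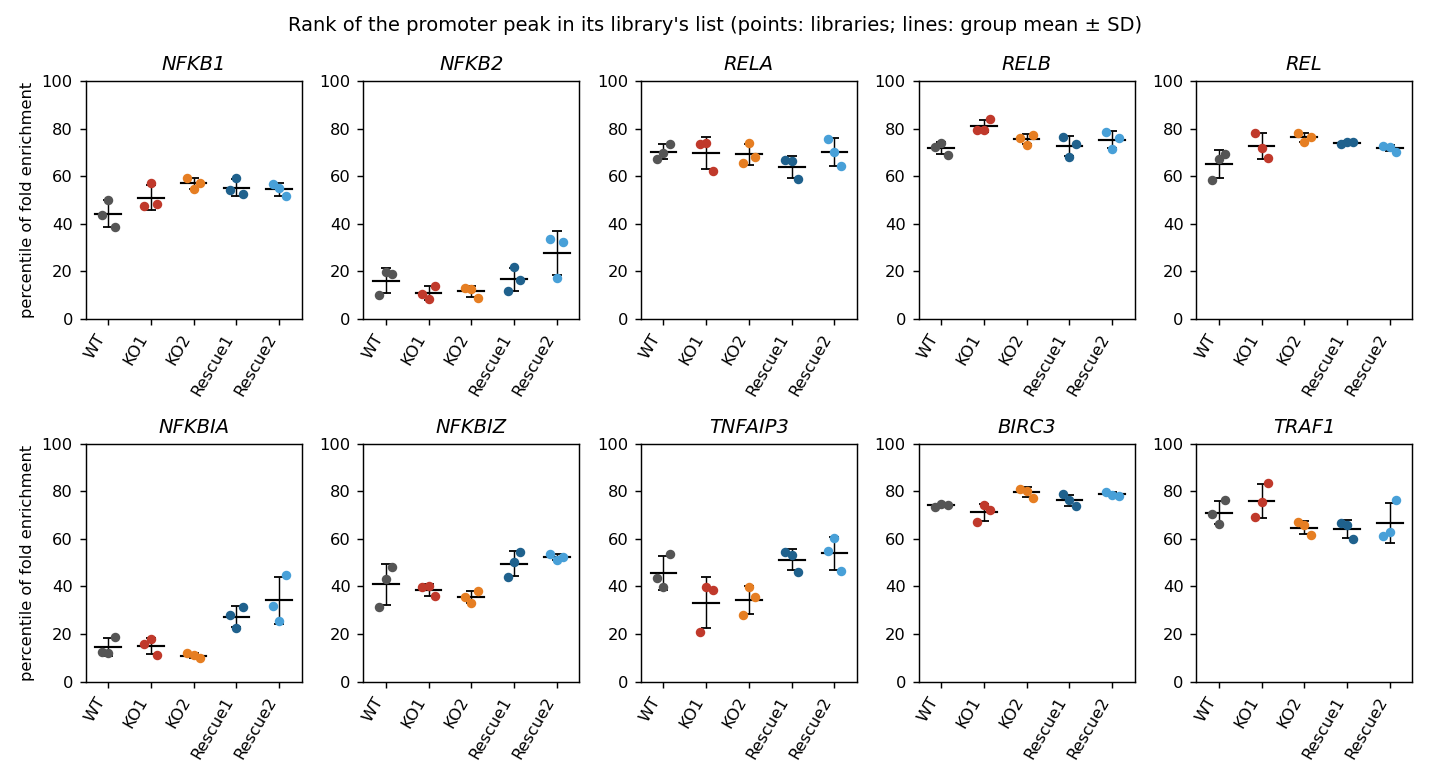
Percentile of the strongest promoter peak within the fold enrichments of its own library (y axis, percent) for the 10 genes, by group (x axis). Points are libraries and bars the group mean ± SD of 3 libraries. Rescue1 and Rescue2 points of NFKBIA, NFKBIZ and TNFAIP3 sit above all KO1 and KO2 points.

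The length under peaks of each locus was then compared between groups. A group was called higher or lower where its libraries did not overlap those of the other group, and genes with a mean of at least 500 bases were considered (17467 genes, all 10 members included). KO was higher than WT at none of the members and lower at 1, NFKBIZ, and among all genes 12.4% were higher and 11.2% lower. Without WT replicate 1, which had the longest coverage of the WT libraries, KO was higher at 3 members, RELA, RELB and TRAF1, and 24.3% of all genes were then higher. Rescue separated from KO at none of the members in either direction, and among all genes 10.4% were higher and 2.28% lower. The median log2 ratio of KO to WT over the 10 members was 0.02, and over all genes tested −0.01. That of rescue to KO was −0.06, and over all genes tested 0.10.

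**Figure D2:**
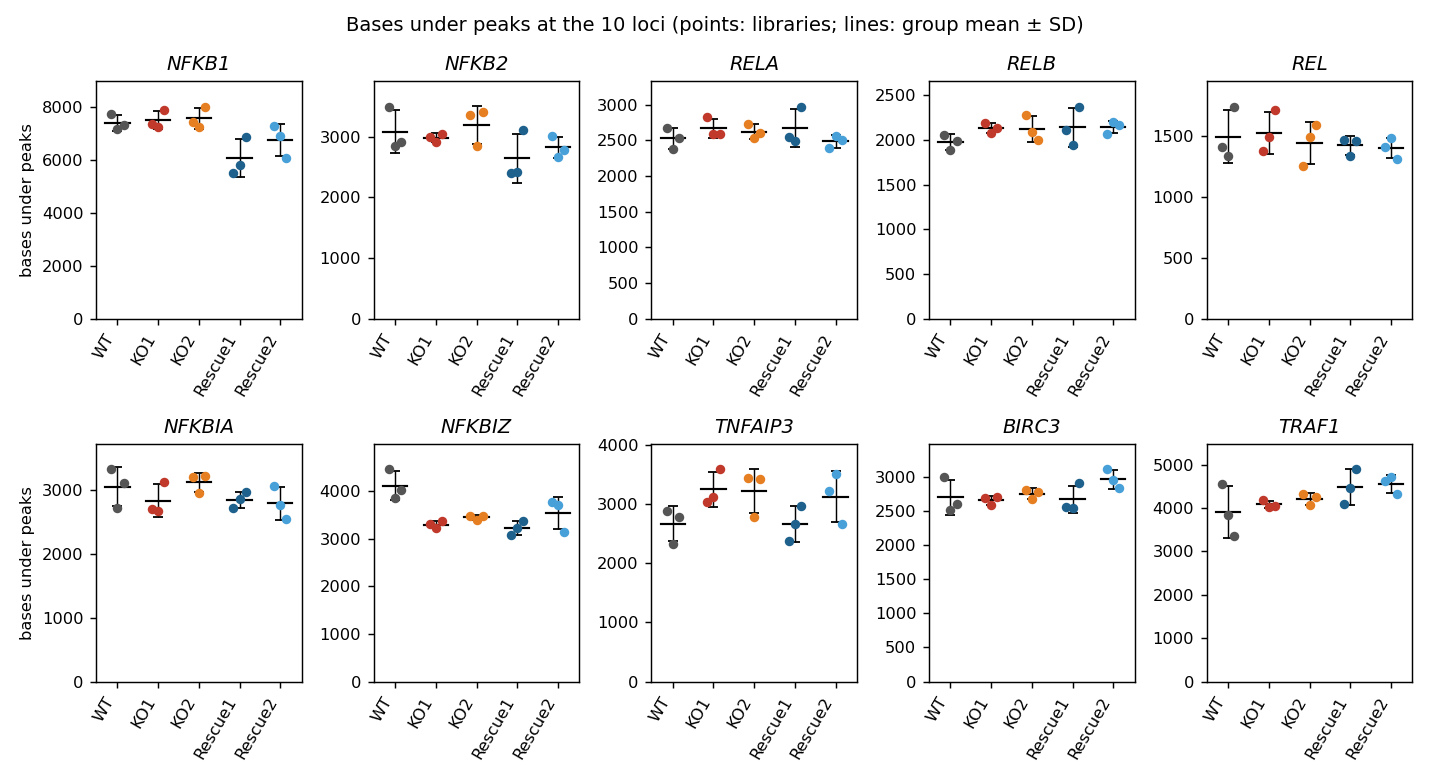
Bases under peaks in the gene body and 10 kb flanks (y axis, from 0) for each locus, by group (x axis). Points are libraries and bars the group mean ± SD of 3 libraries. NFKBIZ is the locus at which all KO libraries, at 3212 to 3478 bases, sit below all WT libraries, at 3859 to 4454.

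NFKBIZ (ENSG00000144802, chr3:101827991-101861022, + strand) had 4454, 3859 and 4023 bases under peaks in WT, 3296, 3212 and 3362 in KO1, 3478, 3380 and 3477 in KO2, 3066, 3212 and 3364 in Rescue1, and 3767, 3700 and 3140 in Rescue2. Every KO and every rescue library lay below every WT library, and KO1 lay below KO2. The mean was 4112 ± 307 in WT (SD, n = 3), 3368 ± 104 in KO (n = 6) and 3375 ± 296 in rescue (n = 6). Most of the difference between KO and WT came from regions not found in every library: regions with a peak in every library accounted for −172 bases and the other regions for −573. At the start of the canonical transcript (chr3:101848950-101850143) the width under peaks was 1045 ± 49.4 bases in WT, 1046 ± 38.1 in KO and 873 ± 119 in rescue. At another promoter region, open in all 15 libraries (chr3:101827185-101828124), it was 753 ± 47.3 in WT, 649 ± 118 in KO and 583 ± 57.5 in rescue. KO (525 to 826) overlapped WT (709 to 803) there, and rescue (486 to 639) lay below WT. An intronic region (chr3:101842624-101842859) had a peak in 3 of 3 WT libraries, 2 of 6 KO and 2 of 6 rescue libraries. Past the 3′ end, a region at chr3:101863268-101863942 had 591, 78 and 533 bases in WT, 113 to 293 in KO and 0 to 244 in rescue. Other regions went the other way. An exonic one (chr3:101859277-101859394) had 89, 114 and 107 bases in KO2 and no peak elsewhere. One past the 3′ end (chr3:101868094-101868301) had 84 to 158 bases in 5 of 6 rescue libraries and no peak in WT or KO. These intronic, exonic and 3′ regions were named after their values were seen. With the flanks left out, NFKBIZ had 1935 to 2330 bases in WT and 1870 to 2147 in KO, which overlap, and with the stricter peak threshold (−log10 q of at least 5) the groups also overlapped.

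The genes whose bases under peaks followed NFKBIZ most closely over the 15 libraries, outside 1 Mb, were ERI1 (Pearson r = 0.969), FCAMR (0.937) and SCTR (0.934). These are a description of 15 libraries that share groups and list lengths.

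**Figure D3:**
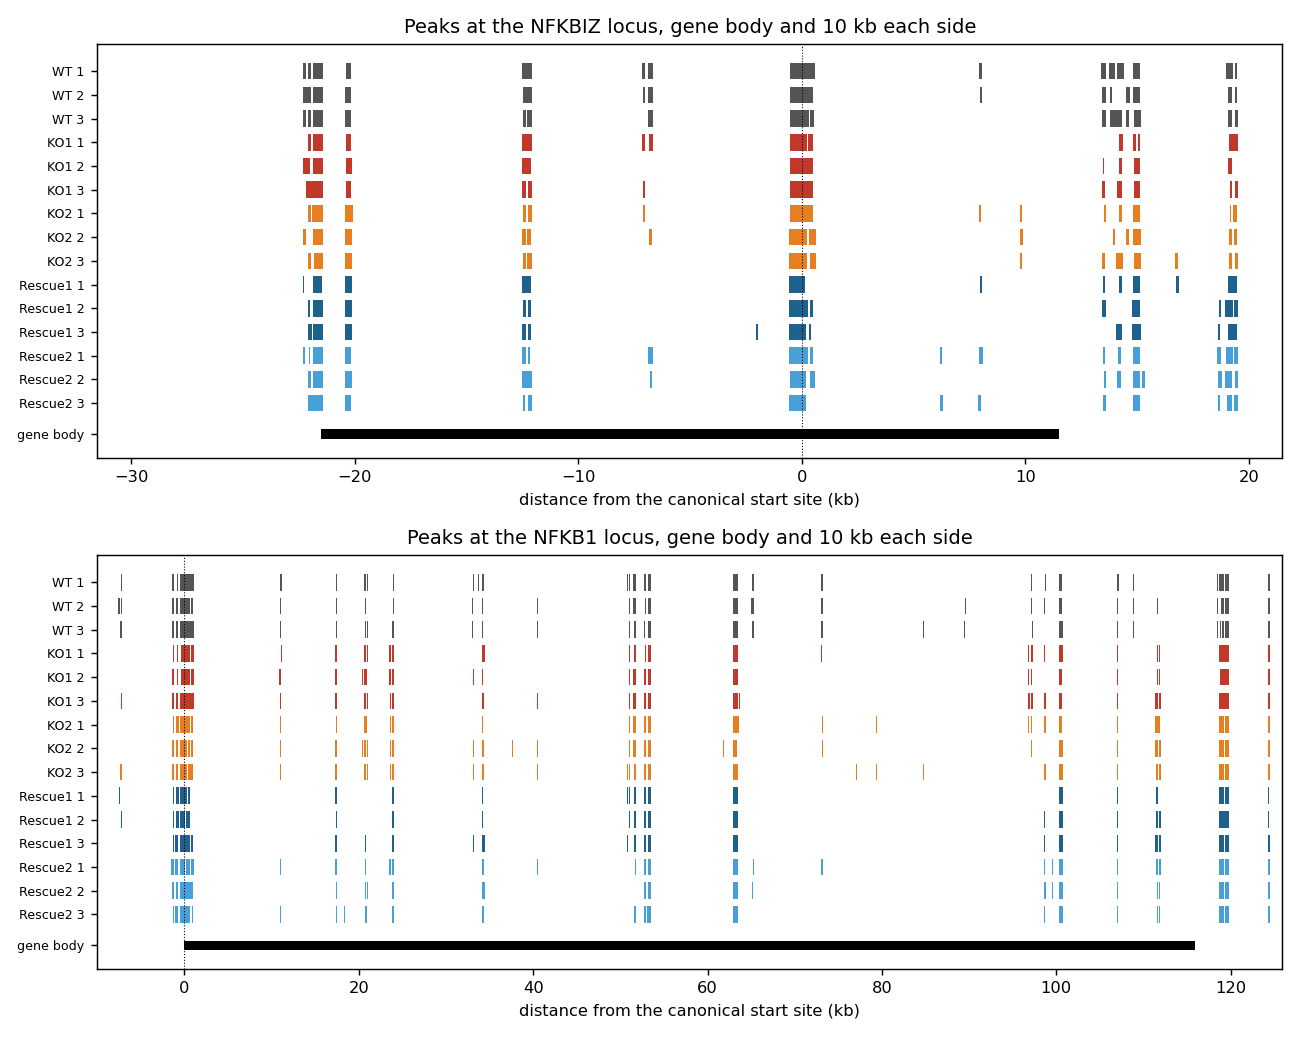
Called peaks at NFKBIZ (top) and NFKB1 (bottom), 1 row per library coloured by group, against distance from the canonical start site (x axis, kb). The black bar is the gene body. The NFKBIZ start site is covered in all rows, while intronic and 3′ peaks differ between WT and KO; at NFKB1, rescue rows lack several intronic peaks present in WT and KO.

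NFKB1 (ENSG00000109320, chr4:102501330-102617302, + strand), which encodes p105 and p50, carried 5 of the 10 regions that were gained or lost. It had 7713, 7154 and 7314 bases under peaks in WT, 7365, 7238 and 7871 in KO1, 7447, 7242 and 8014 in KO2, 5486, 5822 and 6879 in Rescue1, and 7273, 6920 and 6075 in Rescue2. WT and KO overlapped, all Rescue1 libraries lay below all KO2 libraries, and 1 Rescue2 library (7273) lay within the KO range. The difference between rescue and KO (means 6409 ± 712 and 7530 ± 333, n = 6 each) came from regions not found in every library (−1154 bases), while the 13 regions open in all libraries differed by 73.7 bases in the other direction. An intronic region that holds a kB match (GGGGTTTTCC at chr4:102522119-102522128) had 324, 155 and 194 bases in WT, 290 to 354 in KO, and 0, 0 and 95 in Rescue1 and 130, 212 and 216 in Rescue2. The 6 rescue libraries lay below the 6 KO libraries there and overlapped WT. Another intronic region with a match (GGGGCTTTCC at chr4:102553044-102553053) had 281 to 352 bases in WT, 269 to 359 in KO and 0 to 243 in rescue. Both regions were named after their values were seen, and the share of all regions that separate in this way was not counted.

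A region counted as gained in one genotype against another when its peak was present in every library of the one and absent from all libraries of the other, and as lost in the converse case. At the 10 loci, 4 regions (3.10%) were gained in KO against WT and 3 (2.33%) were lost, and among all regions 4.79% were gained and 2.48% lost. In rescue against KO, 1 region (0.775%) was gained and 3 (2.33%) were lost, and among all regions 0.91% were gained and 1.24% lost. Only 1 region at these loci was both gained in KO and lost in rescue, as were 2413 (0.818%) of all regions. None of the 10 regions gained or lost by this rule held a kB match anywhere in its merged length. By a majority of the libraries of each genotype, an exonic TNFAIP3 region (chr6:137882647-137882834) was gained in KO and lost in rescue. It held GGGACTTCCC (chr6:137882727-137882736, − strand). A peak was present in 1 of 3 WT, 5 of 6 KO and 1 of 6 rescue libraries. This region was named after its values were seen, and the share of all regions by majority was not counted.

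The 1 region with peaks in every KO library and in no WT or rescue library lay in the flank of RELA (chr11:65647266-65647639). It was 12104 bp from the nearest RELA start site. It overlapped exon 9 of SIPA1, a neighbouring gene for a Rap GTPase-activating protein. It had 339, 349 and 341 bases under peaks in KO1 and 289, 327 and 330 in KO2, with fold enrichments of 5.47 to 8.04, and no peak in any WT or rescue library. Its 200 central bases are printed on the + strand, without capitals because no kB match is present, and its GC content over the full region was 76.2%.
RELA flank, in SIPA1, chr11:65647353-65647552: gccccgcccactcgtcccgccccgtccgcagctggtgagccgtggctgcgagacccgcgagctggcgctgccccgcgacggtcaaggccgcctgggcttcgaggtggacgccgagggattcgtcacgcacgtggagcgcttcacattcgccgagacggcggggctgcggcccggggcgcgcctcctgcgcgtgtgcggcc

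At NFKB1, 3 regions had peaks in the 3 WT libraries and in no other: an intronic region 87400 bp from the nearest start site (chr4:102590775-102590994, 77, 105 and 168 bases), a region over an exon outside the canonical transcript (chr4:102610155-102610277, 122, 91 and 89 bases) and one past the 3′ end (chr4:102619816-102619908, 80, 81 and 91 bases). Of all regions, 3051 had this pattern. An intronic region at chr4:102598437-102598723 was open in WT (131, 146 and 200 bases) and in KO (75 to 205 bases) and had no peak in any rescue library. Its full sequence is shown on the + strand because it is the NFKB1 region with peaks in WT and KO and none in rescue.
NFKB1 intron chr4:102598437-102598723: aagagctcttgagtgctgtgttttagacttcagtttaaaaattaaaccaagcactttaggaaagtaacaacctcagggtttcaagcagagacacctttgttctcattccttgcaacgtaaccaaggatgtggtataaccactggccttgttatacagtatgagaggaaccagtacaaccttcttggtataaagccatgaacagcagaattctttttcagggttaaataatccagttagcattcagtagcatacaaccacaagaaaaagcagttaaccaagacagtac

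Another NFKB1 intronic region (chr4:102524787-102525107) was gained in KO, with 106 to 317 bases, and had a peak in 2 of 6 rescue libraries. TRAF1, a signalling adaptor of TNF receptors that binds TRAF2, showed both kinds of pattern. A region that overlapped its exon 8, in the untranslated part (chr9:120903104-120903427), was gained in KO with 121 to 324 bases and had a peak in 3 of 6 rescue libraries. An intronic TRAF1 region (chr9:120920810-120921095) had 130 to 186 bases in WT and 164 to 264 in KO and no peak in rescue. At BIRC3, an intronic region (chr11:102332606-102332962) was gained in KO with 192 to 288 bases, had a peak in 1 of 3 Rescue1 libraries and remained in 3 of 3 Rescue2 libraries. Downstream of NFKBIA, chr14:35397437-35397757 was gained in rescue against KO with 121 to 291 bases and had a peak in 1 of 3 WT libraries.

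**Figure D4:**
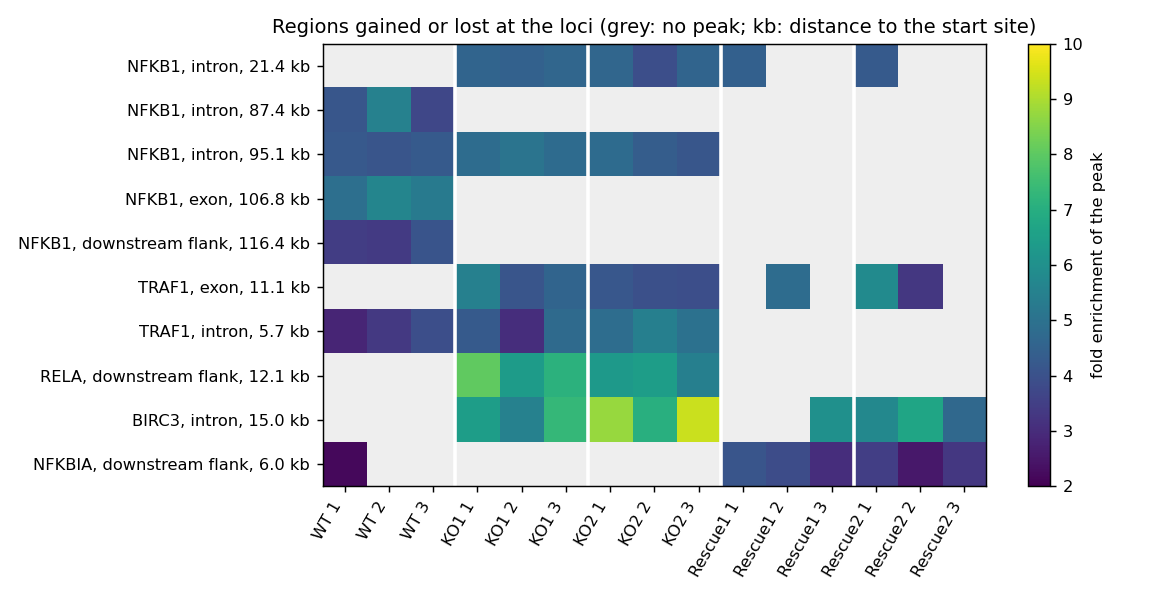
Fold enrichment of the peak (colour scale) in each of the 15 libraries (columns) for the 10 regions gained or lost at the loci (rows, labelled by gene, annotation and distance to the nearest start site in kb). Grey cells have no peak. The RELA flank row is filled in the 6 KO libraries only, and 3 NFKB1 rows in the 3 WT libraries only.

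Over the whole locus, rescue overlapped both KO and WT at the other subunit genes. NFKB2 (ENSG00000077150, chr10:102394110-102402524, + strand), the source of p52, had 2845 to 3494 bases in WT, 2838 to 3400 in KO and 2398 to 3110 in rescue. A region in its upstream flank with a kB match (GGGGTTTTCC at chr10:102384810-102384819) had 400 to 457 bases in WT, 333 to 606 in KO and 0 to 162 in rescue. At a promoter region with matches (chr10:102393951-102395026) rescue instead lay above KO, at 843 to 1057 against 744 to 835 bases, and WT had 740 to 957. Both regions were described after their values were seen. RELA (ENSG00000173039, chr11:65653599-65663090, − strand), the p65 subunit, had 2383 to 2677 in WT, 2536 to 2825 in KO and 2387 to 2974 in rescue. RELB (ENSG00000104856, chr19:45001461-45038192, + strand), the noncanonical partner of p52, had 2055, 1886 and 1985 bases in WT and 2188, 2079 and 2128 in KO1, which do not overlap, but 2278, 2089 and 1999 in KO2, which overlap WT. REL (ENSG00000162924, chr2:60881491-60931612, + strand), the c-Rel subunit prominent in lymphocytes, had 1333 to 1742 in WT, 1257 to 1714 in KO and 1313 to 1480 in rescue.

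Among the inhibitors and targets, TNFAIP3 (ENSG00000118503, chr6:137867214-137883314, + strand) had 2889, 2330 and 2788 bases in WT, 3038, 3123 and 3588 in KO1, 3445, 2785 and 3429 in KO2, 2371, 2658 and 2973 in Rescue1, and 3217, 3509 and 2654 in Rescue2. All KO1 libraries lay above WT, and 1 KO2 library (2785) lay within the WT range. With the flanks left out, KO was above WT at TNFAIP3 (1432 to 1933 against 1033 to 1305 bases) and at NFKBIA (948 to 1145 against 725 to 921), and rescue was below KO at NFKBIA (708 to 889) and NFKB1 (3387 to 4761 against 5212 to 5790). In that setting, 9 members had a mean of at least 500 bases (RELA did not), KO was above WT at 14.6% of all genes and below at 9.69%, and rescue was above KO at 8.38% and below at 2.5%. With the flanks, NFKBIA (ENSG00000100906, chr14:35401079-35404749, − strand) had 2723 to 3332 bases in WT, 2674 to 3225 in KO and 2554 to 3072 in rescue. BIRC3 (ENSG00000023445, chr11:102317484-102339403, + strand) had 2512 to 2994 in WT, 2586 to 2811 in KO, 2563, 2550 and 2904 in Rescue1, and 3113, 2958 and 2834 in Rescue2, where all 3 Rescue2 libraries lay above KO2 (2811, 2669 and 2785). TRAF1 (ENSG00000056558, chr9:120902393-120929173, − strand) had 4551, 3831 and 3361 in WT, 4025 to 4329 in KO and 4087 to 4897 in rescue. Its Rescue2 libraries (4621, 4726 and 4331) also lay above KO2 (4329, 4063 and 4245), and Rescue1 lay below KO2 at NFKBIZ. The share of all genes that separate single clones was not counted. Such separations at NFKB1, RELB, TNFAIP3, BIRC3, TRAF1 and NFKBIZ are therefore description only.

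Rescue was tested against WT to ask whether the loci returned to the parental length, with limma on log2(bases under peaks + 100) over all 17467 genes and Benjamini-Hochberg adjustment. Differences are given on that log2 scale. NFKBIZ fell by 0.28 (SE 0.07, adjusted p = 0.00622, lower in 6 of 6 rescue libraries than in any WT library), and NFKB1 fell by 0.21 (SE 0.08, adjusted p = 0.0492). TRAF1 differed by 0.21 (SE 0.08, adjusted p = 0.0603) and did not pass, and the other 7 members had adjusted p-values of 0.186 to 0.851 in this limma fit. Thus 2 of 10 members were lower and none higher (1, TRAF1, at an unadjusted p under 0.05, and none by an exact permutation test with the same adjustment), and among all genes 3.68% were lower and 21.7% higher. The median difference was −0.02 over the members and 0.09 over all genes.

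The direction of these calls over all genes depends on scaling. When each library was divided by its total bases under peaks, the median over all genes moved from 0.09 to −0.08 and the calls from 3795 higher and 643 lower to 2445 higher and 4909 lower. NFKBIZ and NFKB1 kept their sign in that limma fit (NFKB1 −0.38, adjusted p = 9.3e-08), and NFKB2, NFKBIA and REL also passed, all lower. The NFKB1 call was lost with the stricter threshold (adjusted p = 0.529), with lists of equal length (0.257) and without any single WT library (0.0922 to 0.126), and it held in 4 of the 15 fits that left out 1 library. NFKBIZ lost its call with lists of equal length (0.108). TRAF1 passed as higher with the stricter threshold (log2 difference 0.42, limma adjusted p = 0.00231), with equal lists (0.34, adjusted p = 0.00431), without flanks (0.22, adjusted p = 0.0499) and without WT replicate 1 (0.32, adjusted p = 0.00411). It also passed as higher without Rescue1 replicate 1 and without Rescue2 replicate 3. Many genes were higher in these settings. They were 3285 of 17215 with the stricter threshold, 2551 of 17067 with equal lists and 3163 of 13919 without flanks. Of 17467 genes, 4896 were higher without WT replicate 1, 3446 without Rescue1 replicate 1 and 5366 without Rescue2 replicate 3.

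**Figure D5:**
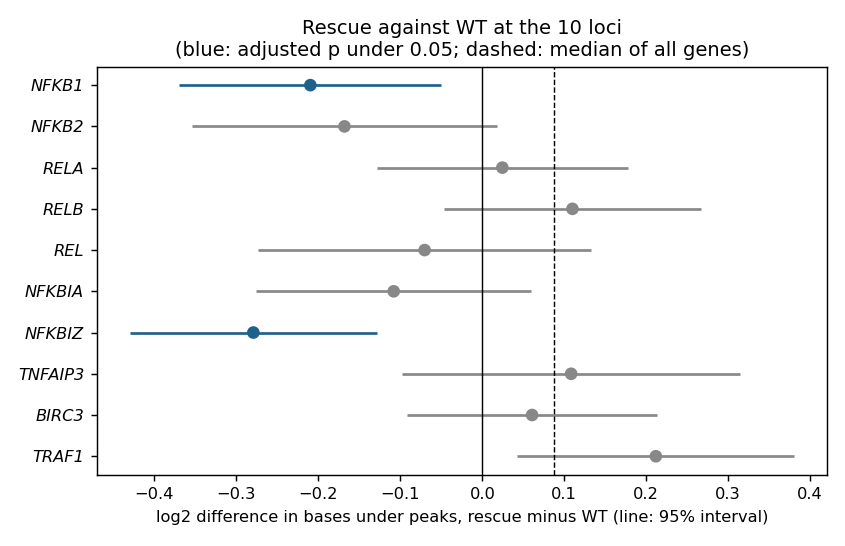
Log2 difference in bases under peaks, rescue minus WT (x axis), with its 95% interval from limma, for the 10 loci (y axis). The dashed line is the median over all genes at 0.09. NFKB1 and NFKBIZ, in blue, passed an adjusted p of 0.05 and lie to the left of 0.

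The clones of one genotype were compared to see how far a difference belongs to a single clone. None of the 10 members passed in KO2 against KO1 or in Rescue2 against Rescue1 by limma, and none had an unadjusted p under 0.05, while among all genes 2.57% and 2.96% passed. An exact permutation test of 3 against 3 libraries cannot go below 0.1. At NFKBIZ all KO1 libraries (3212 to 3362) lay below all KO2 libraries (3380 to 3478). The share of all genes with such a separation was not counted, so it is not read as a clone difference.

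The rest of the pathway was described through 38 genes upstream of or around the subunits. In rescue against WT, 4 (10.5%) were higher and 1 (2.63%) lower by limma, against 21.7% and 3.68% of all genes, with a median log2 difference of 0.05 against 0.09 over all genes. TNIP3, which encodes an A20-binding protein, rose by 0.50 (SE 0.11, adjusted p = 0.00176), TRAF2, a TNF receptor adaptor, rose by 0.38 (SE 0.09, adjusted p = 0.00191), TNFRSF1A, the main TNF receptor, rose by 0.27 (SE 0.07, adjusted p = 0.00936), and CYLD, a deubiquitinase that restrains IKK activation, fell by 0.30 (SE 0.08, adjusted p = 0.00661). The remaining gene, TNFRSF1B (0.23, adjusted p = 0.0404 by limma), was named after its value was seen. TNFRSF1A and TNFRSF1B did not pass after scaling to library totals (0.11 and 0.07), and TNFRSF1A changed sign without flanks (−0.01).

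KO libraries separated from WT at 3 of the 38 upward (7.89%) and 9 downward (23.7%), against 12.4% and 11.2% of all genes. The log2 ratio of means was largest for TNIP3 (0.64), NFKBID (−0.60), CHUK (−0.41) and MYD88 (−0.37). CHUK encodes the IKKα kinase and MYD88 the adaptor of Toll-like and interleukin-1 receptors, and these 2 also separated rescue from KO in the opposite direction. TNFRSF11A had the same pattern, with 3207 to 3351 bases in WT, 2692 to 3026 in KO and 3066 to 3690 in rescue. MYD88 had 1821, 1658 and 1765 bases in WT, 1238 to 1503 in KO and 1514 to 2017 in rescue. CHUK had 2858, 2866 and 2547 in WT, 1767 to 2214 in KO and 2290 to 2674 in rescue. For each of these genes all KO libraries lay below all WT and all rescue libraries. The highest KO and lowest rescue values were close at MYD88 (1503 and 1514) and TNFRSF11A (3026 and 3066). The share of all genes that separate in both comparisons was not counted, so this joint pattern is description only. Rescue was above KO at 4 of the 38 (10.5%), the remaining ones being TNFRSF11A (RANK) and TRAF5, and below at none. Among all genes 10.4% were above and 2.28% below, so the share above was that of the background.

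Over the 129 regions, 12 (9.30%, exact 95% binomial interval 4.90% to 15.7%) held a kB match in the 200 bases around their centre, against 5.47% of all regions. Among promoter regions the share was 4 of 20, against 5.63% of all 23351 promoter regions, and among other regions 8 of 109 (7.34%), against 5.46%. Of the 12, 8 were open in all 15 libraries. In the genome, 170 (7.05%) of the 2413 KO-gained, rescue-lost regions held a match in this window, and 5.70% of regions open in all libraries did. The first of these 2 shares was used to choose the loci and supports nothing here.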

How the data were processed

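ATAC-seq reads of 15 libraries were aligned by the authors to hg38 with BWA (0.7.17 in the submitters' processing notes), and peaks were called per library with MACS2 2.2.7.1, without pooling. Control, duplicate and blacklist handling and cut-site shifting are not given in the sources used here. Each list deposited by the authors gives peak coordinates, a score, the fold enrichment (a ratio to local background), the −log10 p and −log10 q values and the summit. The submitters' notes also name DiffBind 2.14.0, whose counts were not used here.

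Genes were taken from GENCODE v44, and promoter sequences from RefSeq windows on hg38. Members and gene lists were chosen with earlier results of these data known. Bases under peaks were counted in gene body plus 10 kb flanks. Tests used limma 3.58.1 (R 4.3.3) on log2(bases + 100), 5 group means over 15 libraries, trend, genes with a mean of at least 500 bases, and Benjamini-Hochberg adjustment; the script was tested on simulated data. Named by plan were all members, their promoter regions, gained or lost regions, up to 4 other pathway genes per comparison, and the 3 genes most like a member separated in KO. Further regions and genes were named after their values were seen. Alternatives were scaling, pseudocount, filter, threshold (−log10 q of 5), lists of 150000 peaks, no flank, exact permutation, a replicate block and leaving out each library. Counts of peaks and bases carry calling error that no interval here covers. One marker on the kidney epithelial list is not reported here.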

Additional observations from a re-analysis of the deposited data

Results flagged for a closer look

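RELA had 2974 bases under peaks in Rescue1 replicate 3, far above the next rescue library at 2561, a gap that took 0.704 of the range of the 6 rescue libraries. This was the single outlying value among 40 sets of 6 libraries examined, and chance flags about 1 in 20. The clones of one genotype differed by limma at 2 other pathway genes. XIAP, an inhibitor of apoptosis that also acts in receptor signalling, was higher in KO2 than in KO1 by 0.43 on the log2 scale (adjusted p = 0.0329), with 1445, 1443 and 1381 bases in KO1 and 1947, 1618 and 2355 in KO2. CYLD was higher in Rescue2 than in Rescue1 by 0.34 (limma adjusted p = 0.0410), with 1539, 1725 and 1835 bases in Rescue1 and 2215, 2353 and 1977 in Rescue2.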

How the results depend on the processing

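Under the alternatives, 553 values were labelled the same. For a difference this meant the same direction and side of the threshold, and for a count a ratio of at most 1.5 to the main count. For the share of regions with a kB match it meant lying inside the 95% interval of the main share. Of the rest, 57 counts or shares moved, 50 differences lost a call, 9 gained one and 12 changed sign. For rescue against WT, scaling to library totals called 5 members lower (NFKB1, NFKB2, NFKBIA, NFKBIZ and REL). The stricter threshold called 1 lower (NFKBIZ) and 1 higher (TRAF1), equal lists 0 lower and 1 higher (TRAF1), and no flank 1 higher (TRAF1). Over all genes, scaling called 4909 of 17467 lower. The stricter threshold called 601 of 17215 lower and 3285 higher, equal lists 1146 of 17067 lower and 2551 higher, and no flank 3163 of 13919 higher. The exact permutation test called 0 lower: none of the 17467 genes passed the adjustment, although 4676 had an unadjusted p under 0.05 in that test. Replicate numbers did not pair the libraries (same-number correlations of −0.18 to 0.05 over 30 pairs), and with the replicate block 1 member was lower (NFKBIZ), while NFKB1 had a limma adjusted p of 0.0686. Leaving out single libraries gave 1 to 2 lower and 0 to 1 higher (TRAF1). In Rescue1 against Rescue2, no flank called 1 member (BIRC3), with 326 of 13919 genes higher in Rescue2 and 24 lower. With scaling, the calls over all genes went from 371 higher and 78 lower in KO2 than in KO1 to 846 and 671. Those in Rescue2 against Rescue1 went from 494 higher and 23 lower to 516 and 650.

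KO was above WT at 2 members with no flank and at 0 to 3 when single libraries were left out, and below at 0 with the stricter threshold and at 0 with no flank. Rescue was below KO at 1 member with scaling (NFKB1) and at 2 with no flank. When single libraries were left out, rescue was above KO at 0 to 1 and below at 0 to 1. Promoter ranks in rescue were above KO at 0 members by −log10 q, ranks within equal lists were below WT in KO at 1 (TNFAIP3), and leaving out single libraries gave 0 to 2 promoters above and 0 to 2 below WT in KO. Regions gained in KO were 2 where the larger share of a region had to lie under peaks and 11 by a majority of libraries, and those lost in KO 12 by majority. Regions gained in rescue were 0 with the stricter threshold, equal lists or no flank, 4 by majority, and 1 to 2 without single libraries. Those lost in rescue were 1 with the stricter threshold and 14 by majority. KO-gained regions that rescue also lost were 7 by majority and 0 with no flank. The share of all regions under these alternative rules was not counted, so these counts are not read as a trait of the loci. No flank left 77 regions, and 17.8% of whole merged regions held a kB match. The causes were not tested.

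The differences that changed sign had not passed, except TNFRSF1A. With scaling, RELA was −0.14, RELB −0.0533, TNFAIP3 −0.0571 and BIRC3 −0.10. With equal lists RELA was −0.0605 and TNFAIP3 −0.11, and with the stricter threshold RELA was −0.015. With no flank REL was 0.0475 and TNFRSF1A −0.0063. Over the fits without single libraries RELA ran from −0.0167 (without WT replicate 2) to 0.0640, and was also below 0 without Rescue1 replicate 3 (−0.0137), and REL ran from −0.143 to 0.0376 (without WT replicate 3). The clone difference of XIAP lost its call with the stricter threshold (limma adjusted p = 0.369) and equal lists (0.600), and that of CYLD with scaling (0.0817), the stricter threshold (0.0775) and equal lists (0.0984). The lists hold no read counts, so depth could not be equalized other than through list length, and lengths under peaks move with how much each library called.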
